A study of Rattus norvegicus with 2 samples.

Results

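The members are the genes of interleukins, the tumour necrosis factor (TNF) superfamily, the colony-stimulating factors and leukemia inhibitory factor and oncostatin M, with the receptors of each, taken by gene symbol. The symbols chosen begin with Il and a number, or are Tnf, Tnfrsf or Tnfsf with a number, Csf1 to Csf3 and their receptors Csf2ra, Csf2rb and Csf3r, Lif, Lifr, Osm, Osmr, Ltb and Ltbr. Of the 16846 gene symbols measured, 109 met this rule, of which 48 are ligands, 54 receptors and 7 soluble or decoy regulators. Csf2ra was not among the symbols measured. Poly(A) RNA of cells prepared from rat ventricles at postnatal day 0 was sequenced in 2 libraries, 1 per group. The anti-miR library came from cells that carried an adeno-associated virus (AAV, serotype 2/9) with short hairpins against miR-99/100 and let-7a/c for 7 days. The control library came from cells given an empty AAV by the treatment label but mock-transduced by the protocol, and the labels do not settle which. Both groups were prepared by differential plating of trypsin-dissociated ventricles, and the labels name neither a promoter for the hairpins nor how many litters or animals were pooled. With 1 library per group no spread between replicates can be estimated, so the comparisons describe these libraries and carry no p-value.

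Cytokines of these families are secreted or membrane-bound messengers that act through paired receptor chains on nearby cells. Receptors of the TNF superfamily and of the interleukin-1 (IL-1) family signal through adaptor proteins to NF-kB and MAP kinases, and some TNF receptors can trigger cell death. Most other interleukin receptors, including those that share the chain gp130, signal through Janus kinases and STAT transcription factors. In the heart, macrophages and fibroblasts are known sources of IL-1, TNF and gp130 cytokines, and cardiomyocytes carry receptors for several of them. Decoy receptors and binding proteins hold part of the ligand away from its signalling receptor.

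The miRNAs that the hairpins were directed against are shown because they define the treatment, with RefSeq mature sequences (build GRCr8) written 5′ to 3′ and the seed, bases 2 to 8, in capitals. The let-7 miRNAs share the seed GAGGUAG and the miR-99/100 miRNAs the seed ACCCGUA. Poly(A) libraries do not measure these mature RNAs, so the extent of the knockdown was not read here.
rno-let-7a-5p: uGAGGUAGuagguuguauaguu
rno-let-7c-5p: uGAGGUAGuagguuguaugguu
rno-miR-99b-5p: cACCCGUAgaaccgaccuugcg
rno-miR-100-5p: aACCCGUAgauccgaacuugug

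The anti-miR library held 14815846 reads on genes and the control library 16031780. A level is given in reads per 1000000 reads on all genes (RPM), or per kilobase of transcript as well (RPKM) where genes are compared with each other. Markers of the labelled cell type, cardiomyocytes, were far below those of fibroblasts, which goes against the label. Of 18 measured cardiomyocyte markers, 10 lay above a mean of 1 RPM, Tnnt2 (161 RPM in the anti-miR library, 147 in the control) and Actc1 (88.8 RPM in the anti-miR and 77.0 RPM in the control library) were the most abundant by RPM, and Myl7 and Csrp3 had 0 reads in both. Fibroblast markers summed to 132340 RPM in the anti-miR library and 131811 RPM in the control, and 24 measured macrophage markers to 11052 RPM in the anti-miR and 10429 RPM in the control library, with Lyz2 and Cd68 the highest by RPM. Of the macrophage markers 23 lay above 1 RPM, 0 were 2-fold apart, and Cd163 had 0 reads in both libraries. The 23 all had means over 10 RPM, where 1.97% (10 to 100 RPM) and 0% (100 RPM and over) of all genes were 2-fold apart. Of 22 T and NK cell markers, 16 had 0 reads in both libraries, Cd3d, Cd3e and Cd3g among them, and 5 lay above 1 RPM, led by Cd4 with 156 RPM in the anti-miR library and 169 in the control. Of 8 measured B cell markers, 6 had 0 reads in both, Ms4a1 among them, and Blnk had 107 RPM in the anti-miR library and 112 in the control. Of 10 mast cell markers 8 had 0 reads in both, and of 13 neutrophil markers 8 had, S100a9 and Mpo among them, with Csf3r and Mmp8 above 1 RPM. In bulk RNA, fewer cells of a type and less RNA per cell cannot be told apart, and the part of cell makeup in the values that follow was not tested.

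Most measurable cytokine and receptor genes, 48 of 56, differed by less than 2-fold between the libraries. The 109 genes together made up 0.253% of reads in the anti-miR library and 0.247% in the control. Reads were seen for 73 of them in at least 1 library and 36 had 0 reads in both; 56 had a mean of at least 1 RPM, here the floor for a ratio, and 17 had reads below it. A log2 ratio divides the anti-miR RPM by the control RPM after 0.1 is added to each, which shrinks the ratios of low genes. Of the 56, 4 were higher in the anti-miR library by 2-fold or more (Tnf, Ltb, Il17re and Lifr), 4 lower by as much (Il1b, Tnfrsf26, Tnfsf4 and Il23a) and the rest lay between. Among all 10365 genes above the floor, 4.85% passed that mark upwards and 3.56% downwards, 8.41% in all, against 14.3% of the 56. At 1.5-fold, 11 of the 56 were higher (19.6%) and 10 lower (17.9%), beside 10.8% and 8.56% of all genes. The 1.5-fold shares were not split by level, and 22 of the 56 lay at 1 to 10 RPM, beside 2430 of the 10365 genes. The median log2 ratio of the 56 was 0.06, also with genes at 0 in 1 library set at the bound that 3 reads allow, and that of all genes above the floor was 0.03.

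The share past 2-fold depended on level, for these genes as for all genes. Between 1 and 10 RPM, 6 of 22 were past 2-fold (27.3%), near the 30.9% of all 2430 genes at that level. Between 10 and 100 RPM, 2 of 27 were (7.41%), against 1.97% of 6142 genes. These were Il1b and Il17re, with means of 11.8 and 10.7 RPM, at the low edge of this range. At 100 RPM and over, 0 of 7 were, as for all 1793 genes at that level. Low genes were often listed in 1 library only: of 636 genes with 20 to 49 reads over both libraries, 163 (25.6%) had all of them in 1 library. Intervals given here are exact Clopper-Pearson 95% intervals of the ratio of reads, and they cover counting error only, so they do not cover differences between libraries of this kind.

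**Figure D1:**
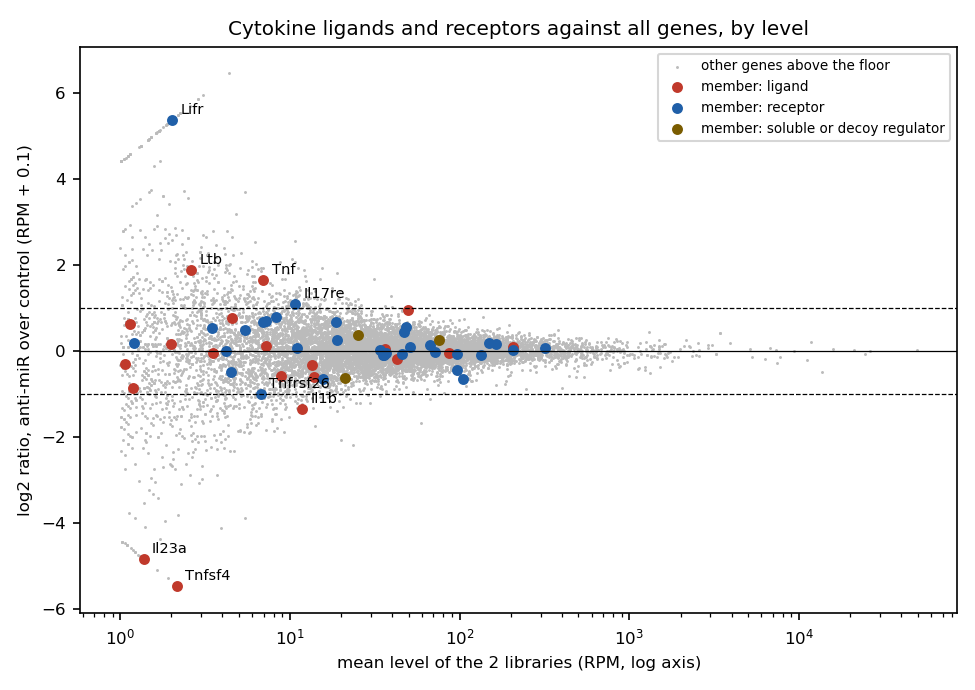
Each point is a gene above the floor, with the mean level of the 2 libraries in RPM on a log axis and the log2 ratio of anti-miR over control on the vertical axis; coloured points are cytokine ligands, receptors and soluble or decoy regulators, and dashed lines mark 2-fold. The 8 named genes lie past the lines, and the spread of all genes is wide at the left and narrow at the right.

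**Figure D2:**
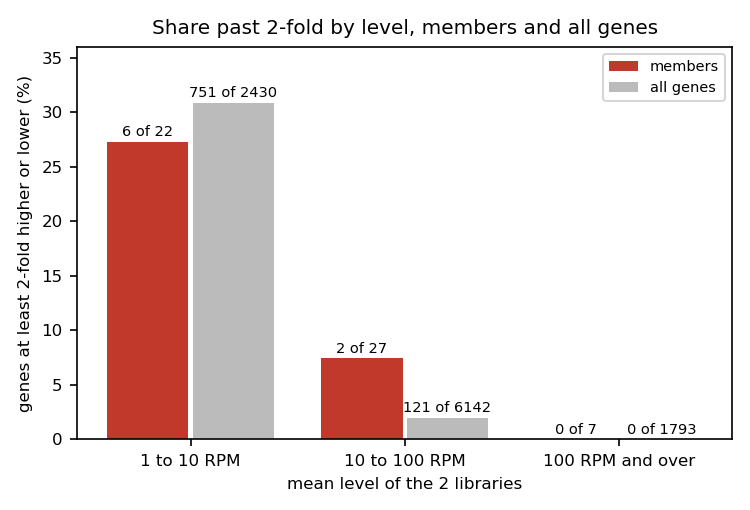
Bars give the percentage of genes past 2-fold in either direction, anti-miR over control, in 3 ranges of mean level, for the cytokine and receptor genes and for all genes, with the counts above the bars. In the lowest range 6 of 22 and 751 of 2430 genes were past 2-fold, and at 100 RPM and over none of 7 and none of 1793.

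Among TNF superfamily ligands, Tnf, Ltb, Tnfsf13 and Tnfsf13b were higher in the anti-miR library by at least 1.5-fold, Tnfsf12 was nearly equal and Tnfsf4 was listed at 0. Tnf (rn4 chromosome 20, 3661000 to 3663617, + strand), the founding inflammatory ligand of the superfamily, had 157 reads and 10.6 RPM in the anti-miR library, against 53 reads and 3.31 RPM in the control. The ratio was 3.21 (counting interval 2.33 to 4.46). Ltb (chromosome 20, 3666524 to 3668369, − strand), the lymphotoxin chain that anchors its partner at the membrane, had 62 reads and 4.18 RPM in the anti-miR library, against 17 reads and 1.06 RPM in the control, a ratio of 3.95 (2.28 to 7.20). In both genes the anti-miR library was the higher one, at mean levels of 1 to 10 RPM, where 30.9% of all genes were past 2-fold. The pair are neighbours within 7.37 kb, on opposite strands, and the table's span for Clic1 (240 RPM in the anti-miR library, 268 in the control) runs across both, on the strand of Ltb, so reads could be assigned to either of those genes. Lta, the lymphotoxin alpha gene beside Tnf and no member by symbol, had 0 reads in the anti-miR library and 18 in the control. Macrophage markers summed to nearly equal levels in the 2 libraries, as given above, with Lyz2 the largest part (3937 RPM in the anti-miR library, 2937 in the control). Of the 23 above the floor 0 were past 2-fold. All 23 had means over 10 RPM, where 1.97% (10 to 100 RPM) and 0% (100 RPM and over) of all genes were, so this count is near the background. Single markers ranged from a log2 ratio of −0.57 for C1qa to 0.99 for Fcgr2b, and the part of macrophages in the Tnf and Ltb values was not tested.

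Tnfsf13 (chromosome 10, 56499945 to 56502928), encoding APRIL, a survival factor of B cells and plasma cells, had 978 reads and 66.0 RPM in the anti-miR library, against 542 reads and 33.8 RPM in the control. Its log2 ratio of 0.96, a ratio of 1.95 (1.76 to 2.17), lay just inside 2-fold and was the highest of any member over 20 RPM. Tnfsf12, encoding TWEAK, a ligand that acts on fibroblasts and muscle cells, lies directly beside it on the same strand and had 84.8 RPM in the anti-miR library and 87.8 in the control, a ratio of 0.966 (0.895 to 1.04). The 2 genes thus differed in ratio although they are less than 1 kb apart. Tnfsf13b, encoding the related factor BAFF, had 5.74 RPM in the anti-miR library and 3.31 in the control, a ratio of 1.74 (1.22 to 2.49). Tnfsf4 (chromosome 13, 77026337 to 77050221), encoding OX40L, a co-stimulator of T cells, had 0 reads in the anti-miR library and 69 in the control, at least 21.3-fold lower with the 0 set at 3 reads per library. The counting interval of the ratio reaches up to 0.0594. A listed 0 may be no measurement in this table, since Rpl38, a ribosomal protein gene that every cell uses, is at 0 in both libraries; of 594 genes with 50 to 99 reads over both libraries, 27 (4.55%) had 0 in 1 library.

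Promoters of Tnf and Ltb, the neighbours that were both higher, and of Il1b, the most abundant of the 4 lower members, are shown for context and were chosen after these values were seen. Each runs from 250 bases before to 50 after the RefSeq start on build GRCr8, 5′ to 3′ on the gene's strand. Capitals mark matches on either strand to the kappaB consensus, to the AP-1 site TGANTCA or to the TATA box TATAAA; each window shown holds 1 match in all. Among 27457 rat promoters of this length, 4.16% hold the kappaB consensus, 7.33% the AP-1 site and 14.3% the TATA box, and among the 81 members with a RefSeq promoter 12.3%, 11.1% and 17.3% do. The Tnf window (chr20:3626435-3626734, + strand) and the Il1b window (chr3:137036532-137036831, − strand) each hold 1 TATA box, and the Ltb window (chr20:3634005-3634304, − strand) holds 1 kappaB match, 25 bases before the start. A match is a run of letters and not a measured binding site.
Tnf: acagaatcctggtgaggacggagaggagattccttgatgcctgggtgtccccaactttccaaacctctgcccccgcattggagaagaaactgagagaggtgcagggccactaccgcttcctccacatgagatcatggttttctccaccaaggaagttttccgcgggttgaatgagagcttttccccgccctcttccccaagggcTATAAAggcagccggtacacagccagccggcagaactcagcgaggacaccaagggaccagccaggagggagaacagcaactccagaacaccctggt
Ltb: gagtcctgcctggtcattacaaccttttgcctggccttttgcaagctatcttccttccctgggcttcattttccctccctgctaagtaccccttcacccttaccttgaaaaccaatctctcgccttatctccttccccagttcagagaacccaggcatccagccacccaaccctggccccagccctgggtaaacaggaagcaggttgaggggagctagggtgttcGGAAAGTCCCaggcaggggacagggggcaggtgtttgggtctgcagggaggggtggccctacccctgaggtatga
Il1b: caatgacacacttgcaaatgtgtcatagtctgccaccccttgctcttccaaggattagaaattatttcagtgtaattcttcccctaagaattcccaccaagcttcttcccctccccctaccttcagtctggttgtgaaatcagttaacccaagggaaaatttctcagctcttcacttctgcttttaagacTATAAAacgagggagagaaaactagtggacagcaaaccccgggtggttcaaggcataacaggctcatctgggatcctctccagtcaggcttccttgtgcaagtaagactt

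The TNF superfamily receptors Tnfrsf1a, Ltbr and Tnfrsf12a were the 3 most abundant members per length, with ratios of 1.01, 1.13 and 1.11. Of the 16 receptors of this superfamily, 10 lay above the floor. Tnfrsf1a (chromosome 4, 162172563 to 162185252), the main TNF receptor of most cells, had 208 RPM in the anti-miR library and 205 in the control, a ratio of 1.01 (0.964 to 1.06). Tnfrsf1b, the second TNF receptor, which leukocytes and endothelium carry, had 57.2 RPM in the anti-miR library and 39.0 in the control, a ratio of 1.47 (1.32 to 1.63). The endothelial markers, of which 13 were measured, summed to 123 RPM in the anti-miR library and 82.1 in the control. Of the 9 above the floor 2 were 2-fold higher (Pecam1, Tek) and 2 lower (Plvap, Vwf), beside 4.85% and 3.56% of all genes. All of these had mean levels of 1 to 10 RPM, where 30.9% of all genes were past 2-fold. The part of endothelial cells in the Tnfrsf1b value was not tested. Ltbr, the receptor of the lymphotoxin complex, had 174 RPM in the anti-miR library and 155 in the control, and Tnfrsf12a, the receptor of TWEAK known as Fn14, 70.2 RPM in the anti-miR and 63.2 RPM in the control library. These receptors therefore differed by less than 1.5-fold while the ligands Tnf and Ltb were past 3-fold.

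Tnfrsf11b, encoding the secreted decoy osteoprotegerin, had 81.9 RPM in the anti-miR library and 68.9 in the control, Tnfrsf21, a death-domain receptor, 34.7 RPM in the anti-miR and 36.8 RPM in the control library, and Tnfrsf11a, the receptor RANK, 11.2 RPM in the anti-miR and 10.7 RPM in the control library. Tnfsf11, the ligand of RANK and of osteoprotegerin, had 0 reads in both libraries, as did Tnfsf10, encoding TRAIL. Tnfrsf10b, a death receptor for TRAIL, had 8.50 RPM in the anti-miR library and 5.30 in the control, and Tnfrsf8, encoding CD30, 4.12 RPM in the anti-miR and 2.81 RPM in the control library. Tnfrsf25, the death receptor of the ligand TL1A, had 19 reads in the anti-miR library and 18 in the control. Tnfrsf26 (chromosome 1, 203984072 to 204004029) was the 1 receptor of this family past 2-fold above the floor, with 66 reads and 4.45 RPM in the anti-miR library, against 145 reads and 9.04 RPM in the control, a ratio of 0.493 (0.362 to 0.663). It sits at the threshold, at a log2 ratio of −1.01, and falls inside 2-fold at −0.88 with a pseudocount of 1 RPM. Below the floor, Tnfrsf4, the receptor of OX40L, had 3 reads in the anti-miR library and 27 in the control, and Tnfrsf14 had 0 reads in the anti-miR library and 14 in the control. Over the 17 members of this superfamily above the floor, 13 had a ratio above 1 and 4 below, and the median log2 ratio was 0.18. Among all 10365 genes above the floor, 5522 had a ratio above 1 and 4843 below. Tnfrsf1a, one of the 13, falls just below 1 under both other scalings.

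**Figure D3:**
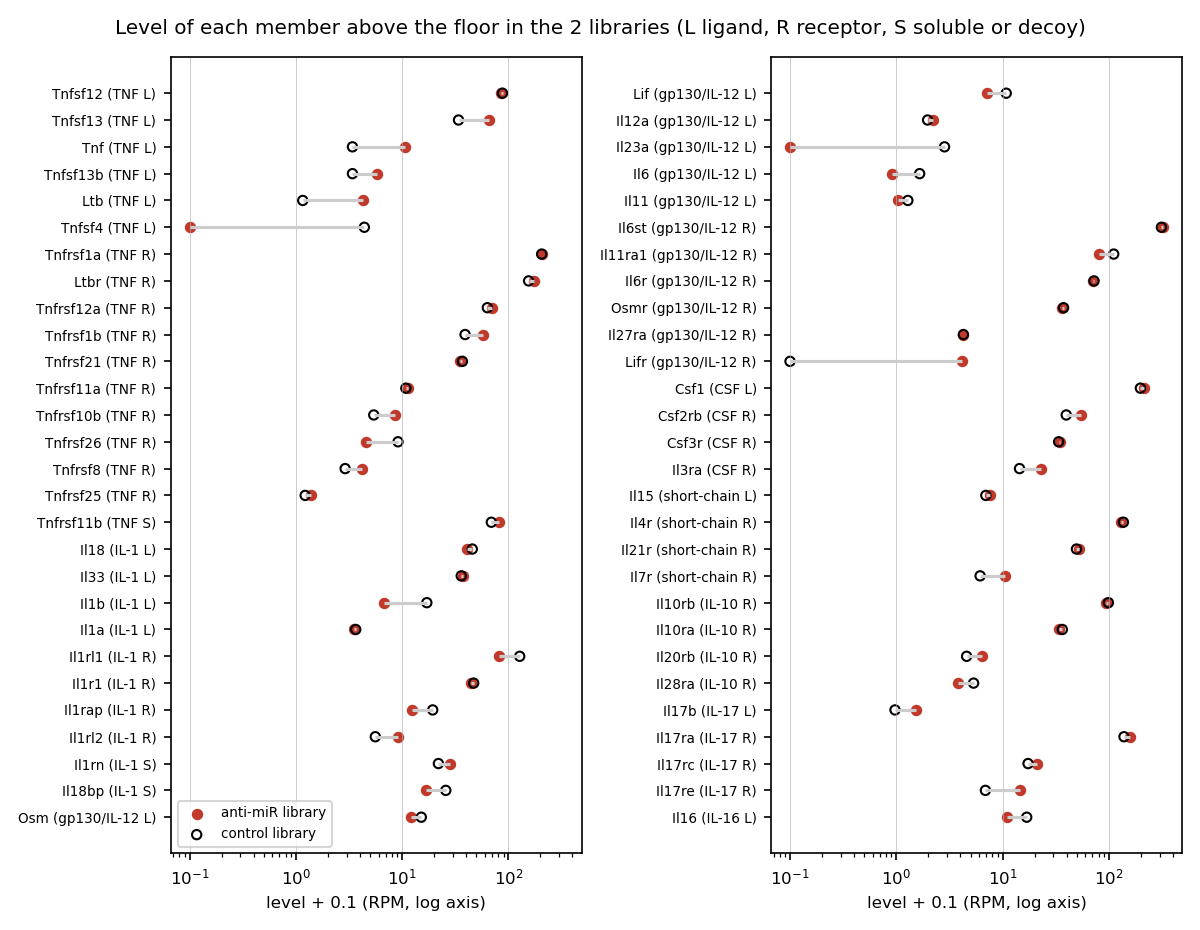
Level of each of the 56 members above the floor, in RPM with 0.1 added, on a log axis; filled points are the anti-miR library and open circles the control, grouped by family with ligands, receptors and soluble or decoy regulators marked L, R and S. Csf3r, Tnfrsf1a and Il27ra have overlapping points, and Tnfsf4, Il23a and Lifr have 1 point at the left edge, where 0 reads are drawn.

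In the IL-1 family, Il1b, the receptor chains Il1rl1 and Il1rap and the binding protein Il18bp were lower in the anti-miR library by at least 1.5-fold, while Il1rl2 was higher by as much. Il1b (chromosome 3, 116964425 to 116970867, − strand), the inducible inflammatory cytokine that caspase-1 matures, had 98 reads and 6.61 RPM in the anti-miR library, against 272 reads and 17.0 RPM in the control. The ratio was 0.390 (0.306 to 0.493), past 2-fold lower. Il1a, its neighbour within 57.3 kb, had 3.44 RPM in the anti-miR library and 3.56 in the control, so the neighbour lay within counting error of equality. Il1rn, encoding the IL-1 receptor antagonist, had 28.2 RPM in the anti-miR library and 21.8 in the control, a ratio of 1.29 (1.12 to 1.49). Il18, a relative that also needs caspase-1, had 40.4 RPM in the anti-miR and 45.6 RPM in the control library, and Il33, a nuclear alarmin of stromal cells, 37.2 RPM in the anti-miR and 35.9 RPM in the control library. Il18bp, the secreted binding protein of IL-18, had 16.6 RPM in the anti-miR library and 25.6 in the control, a ratio of 0.648 (0.551 to 0.760).

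Of the receptors, Il1rl1 (chromosome 9, 39609187 to 39617321), encoding the IL-33 receptor ST2, had 1207 reads and 81.5 RPM in the anti-miR library, against 2045 reads and 128 RPM in the control. Its ratio of 0.639 (0.594 to 0.686) was the lowest of the 7 members with a mean of at least 100 RPM, a level at which 0 of 1793 genes were 2-fold apart. The table keeps 1 transcript per gene, so secreted and membrane ST2 are not told apart. Il1rap, the accessory chain that IL-1 and IL-33 receptors share, had 12.2 RPM in the anti-miR library and 19.3 in the control, a ratio of 0.634 (0.525 to 0.764). Il1r1, the signalling IL-1 receptor, had 44.7 RPM in the anti-miR and 47.0 RPM in the control library and thus differed little, with an interval of its ratio from 0.856 to 1.06. Il1rl2, the receptor of IL-36, had 9.04 RPM in the anti-miR library and 5.49 in the control. Il1r1, Il1rl1, Il1rl2, Il1r2 and Il18r1 lie within 380 kb of chromosome 9 on 1 strand, and the ratios of the 3 above the floor went both ways. The decoy Il1r2 had 9 reads in the anti-miR library and 11 in the control, and Il18r1 had 0 in both, as did Il36a and Il36g. Over the 10 members of the family above the floor, 3 had a ratio above 1 and 7 below, and the median log2 ratio was −0.12. Among all 10365 genes above the floor, 5522 had a ratio above 1 and 4843 below.

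The gp130 receptors Il6st, Il6r and Osmr were nearly equal in the libraries, and of the gp130 ligands Il6 and Il11 were low. Per length, the ligand Osm had 16.7 RPKM in the anti-miR library and 21.0 in the control, above Osmr with 12.6 and 13.0. Il6st (chromosome 2, 43808681 to 43838684), encoding gp130, had 326 RPM in the anti-miR library and 312 in the control, a log2 ratio of 0.06 whose interval barely excludes equality. Il6r, the IL-6 receptor, had 70.9 RPM in the anti-miR and 72.5 RPM in the control library, and Osmr, the oncostatin M receptor, 36.2 RPM in the anti-miR and 37.4 RPM in the control library. Il11ra1, the receptor of IL-11, a cytokine that acts on cardiac fibroblasts, had 81.3 RPM in the anti-miR library and 111 in the control, a ratio of 0.732 (0.680 to 0.788). Lifr (chromosome 2, 56426058 to 56477198), the receptor chain of leukemia inhibitory factor, had 60 reads and 4.05 RPM in the anti-miR library and 0 reads in the control, at least 21.6-fold higher with the 0 set at 3 reads per library, while the counting interval of the ratio starts at 17.1. It is one of 23 genes of 50 to 99 reads with none in the control.

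The gp130 ligands Osm, Lif, Il11 and Il6 had ratios below 1, none of them by 2-fold, whereas gp130 ligands outside the symbol rule, given with the related genes further on, had ratios on both sides of 1. Osm, encoding oncostatin M, which leukocytes make, had 177 reads and 11.9 RPM in the anti-miR library, against 241 reads and 15.0 RPM in the control, a ratio of 0.795 (0.651 to 0.969). Lif, its neighbour within 33.4 kb, had 105 reads and 7.09 RPM in the anti-miR library, against 172 reads and 10.7 RPM in the control, a ratio of 0.661 (0.513 to 0.847). Il6 had 12 reads in the anti-miR library and 25 in the control, and Il11 had 14 reads in the anti-miR library and 19 in the control; the counting interval of each ratio spans 1. Il12a, the p35 chain of IL-12, had 31 reads in the anti-miR library and 30 in the control. Il23a (chromosome 7, 1584112 to 1586226), the p19 chain of IL-23, had 0 reads in the anti-miR library and 44 in the control, at least 13.6-fold lower with the 0 set at 3 reads per library, while the counting interval of the ratio reaches up to 0.0946. Its partner chain Il12b and the receptor chains Il12rb1 and Il12rb2 had 0 reads in both libraries. Of genes with 20 to 49 reads over both libraries, as Il23a has, 25.6% were likewise seen in 1 library only. Il27ra, the IL-27 receptor, had 62 reads in the anti-miR library and 67 in the control.

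Among members of the myeloid lineage, the growth factor Csf1 was at one of the higher levels, and the receptor chains with reads lay lower. Csf1 (chromosome 2, 203292765 to 203307947), the growth factor of macrophages, had 212 RPM in the anti-miR library and 198 in the control, a ratio of 1.07 (1.02 to 1.12). Its receptor gene Csf1r, a macrophage marker that is no member by symbol, had 748 RPM in the anti-miR and 674 RPM in the control library. Csf2rb, the beta chain shared by the receptors of GM-CSF, IL-3 and IL-5, had 54.1 RPM in the anti-miR library and 39.7 in the control, a ratio of 1.36 (1.23 to 1.51), and Il3ra, which pairs with it, 22.8 RPM in the anti-miR and 14.3 RPM in the control library, a ratio of 1.59 (1.34 to 1.89). Both lie inside 2-fold and are higher in the anti-miR library. Csf3r, the G-CSF receptor of granulocytes and monocytes, had 34.4 RPM in the anti-miR library and 33.6 in the control. Csf2, Csf3, Il3 and Il5, the ligands of these receptors, had 0 reads in both libraries, and Il34, a further ligand of Csf1r, was seen below the floor in the anti-miR library only.

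Among the lymphoid interleukins, 3 of 7 receptor chains lay above the floor (Il4r, Il21r and Il7r), and 1 of 7 ligands. Il4r, which binds IL-4 and IL-13, had 129 RPM in the anti-miR library and 137 in the control, and Il21r 52.7 RPM in the anti-miR and 49.5 RPM in the control library, while Il4, Il13 and Il21 had 0 reads in both. Il7r had 156 reads and 10.5 RPM in the anti-miR library, against 97 reads and 6.05 RPM in the control, a ratio of 1.74 (1.34 to 2.27), and its ligand Il7 was seen below the floor in the anti-miR library only. The chain Il2rg, which the receptors of IL-2, IL-4, IL-7, IL-15 and IL-21 share, was seen below the floor in the anti-miR library only, as was Il13ra1, and Il2ra had 11 reads in the anti-miR library and 0 in the control. Il15, the 1 ligand of this group above the floor, had 7.49 RPM in the anti-miR library and 6.86 in the control.

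The IL-10 receptor chains Il10ra and Il10rb were present with little ligand. Il10rb, a chain shared with the receptors of IL-22 and lambda interferon, had 94.7 RPM in the anti-miR library and 99.0 in the control, and Il10ra, the chain specific to IL-10, 34.2 RPM in the anti-miR and 36.4 RPM in the control library. Il10 was seen below the floor in the anti-miR library only, and Il20, Il22 and Il24 had 0 in both. Il20rb had 6.34 RPM in the anti-miR library and 4.49 in the control, and Il28ra, named Ifnlr1 in RefSeq and encoding the receptor of lambda interferon, 3.71 RPM in the anti-miR and 5.24 RPM in the control library.

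All 4 IL-17 family members above the floor had a ratio above 1, as had 5522 of all 10365 genes above the floor. Il17re (chromosome 4, 149348600 to 149361696), the receptor chain for IL-17C, had 216 reads and 14.6 RPM in the anti-miR library, against 109 reads and 6.80 RPM in the control, a ratio of 2.14 (1.70 to 2.73), though its log2 ratio with a pseudocount of 1 RPM fell just short of 2-fold. Il17rc, which starts less than 1 kb further along the same strand, had 20.8 RPM in the anti-miR and 17.3 RPM in the control library, a ratio of 1.20 (1.02 to 1.42). Il17ra, the chain that the family's receptors share, had 159 RPM in the anti-miR library and 139 in the control, a ratio of 1.14 (1.08 to 1.21). The ligand Il17b had 21 reads in the anti-miR library and 14 in the control, and the counting interval of its ratio (0.787 to 3.45) spans 1. Il17a, Il17c, Il17f and Il25 had 0 reads in both. Il16, a chemoattractant of CD4-bearing cells, had 162 reads and 10.9 RPM in the anti-miR library, against 269 reads and 16.8 RPM in the control, a ratio of 0.652 (0.533 to 0.795).

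**Figure D4:**
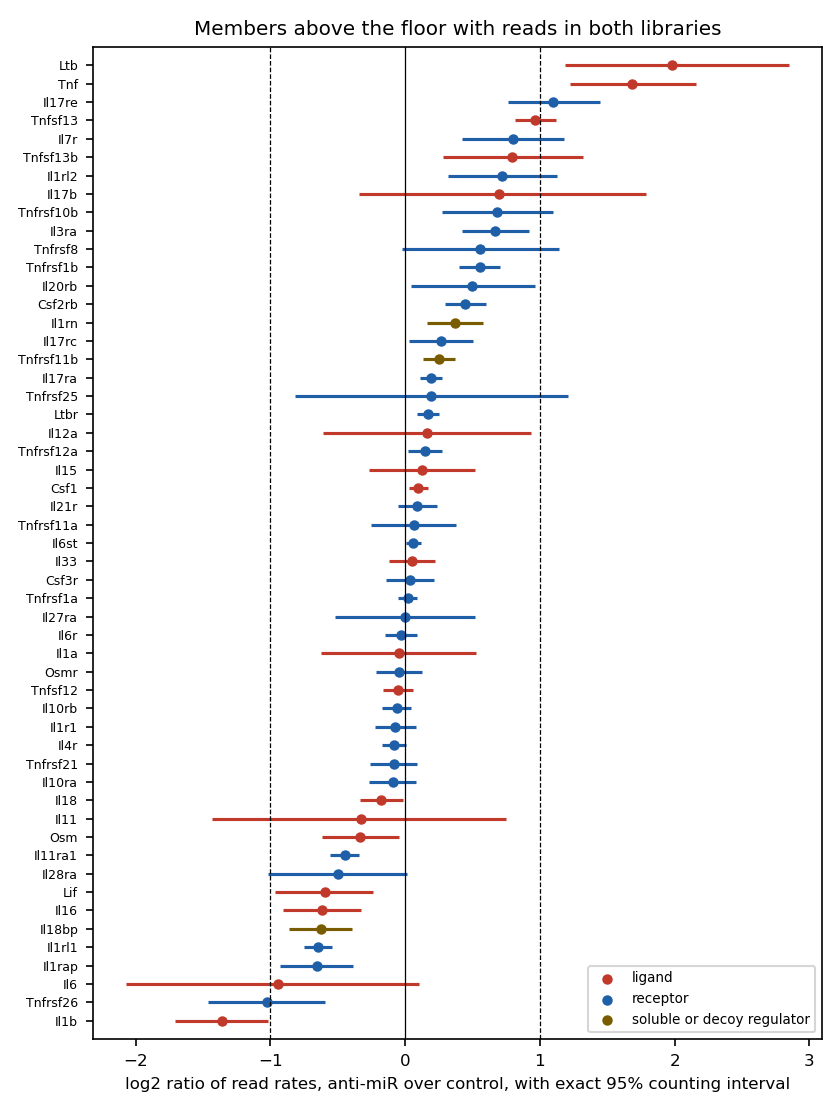
Log2 ratio of read rates, anti-miR over control, for the 53 members above the floor with reads in both libraries, with exact 95% counting intervals and dashed lines at 2-fold; colours mark ligands, receptors and soluble or decoy regulators. Ltb, Tnf and Il17re lie past the upper line and Tnfrsf26 and Il1b past the lower one, and ligands lie at both ends.

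By level per length, receptors led. Tnfrsf1a ranked first with 98.9 RPKM in the anti-miR library and 97.6 in the control, followed by Ltbr with 84.4 RPKM in the anti-miR and 75.0 RPKM in the control library and Tnfrsf12a with 73.3 RPKM in the anti-miR and 66.1 RPKM in the control library. The most abundant ligands were Il18 with 57.6 RPKM in the anti-miR library and 65.0 in the control, Csf1 with 56.6 RPKM in the anti-miR and 52.9 RPKM in the control library, and Tnfsf12 with 55.5 RPKM in the anti-miR and 57.4 RPKM in the control library. Tnfsf13 took rank 11 in the anti-miR library and 18 in the control. The inflammatory cytokines stood far lower, Tnf at 6.31 RPKM in the anti-miR library and 1.97 in the control and Il1b at 5.08 RPKM in the anti-miR and 13.0 RPKM in the control library, so their order was opposite in the 2 libraries. The 33 receptors above the floor had 2 past 2-fold on the higher side and 1 on the lower, and the 20 ligands had 2 and 3, beside 4.85% and 3.56% of all genes. Of the 5 ligands, all but Il1b had mean levels of 1 to 10 RPM, where 30.9% of all genes were past 2-fold. The 3 soluble or decoy regulators above the floor lay inside 2-fold.

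Members seen in 1 library only were mostly seen in the anti-miR library, and so were all genes of that kind (722 against 263). With 0 reads in the control and reads in the anti-miR library there were 11 of the 73 (15.1%), and 4 (5.48%) showed the opposite. Over all genes with reads the shares were 6.21% and 2.26%, but such shares depend on read number. With 1 to 9 reads over both libraries, 8 of 8 members were seen in 1 library only, beside 93.5% of all genes. With 10 to 19 reads 3 of 6 members were, beside 64.7%, and with 20 to 49 reads 2 of 8, beside 25.6%. With 50 to 99 reads 2 of 4 were, beside 4.55%. The anti-miR library had 725 genes with 1 to 9 reads and the control 330, so the libraries differ in how often low genes are listed at all. Lifr, above the floor, is one of the 11, and Tnfsf14, with 14 reads, and Il2ra, with 11, had the most reads of the others. A count of 0 allows up to 0.202 RPM in the anti-miR library and 0.187 RPM in the control. Il1rapl1, a brain relative of the IL-1 receptors, had 0 reads in the anti-miR library and 20 in the control. Tnfrsf9 had 6 reads in the anti-miR library and 8 in the control, Tnfrsf19 had 8 reads in the anti-miR library and 7 in the control, and Il17rd had 8 reads in the anti-miR library and 11 in the control. Il36b, Il22ra2 and Tnfsf15 were seen below the floor in the anti-miR library only. The members with 0 reads in both libraries that are not named above were the ligands Il1f10, Il2 and Il9, the antagonist Il36rn, the decoy Il13ra2 and the receptors Il1rapl2, Il5ra, Il9r, Il17rb, Il20ra, Il22ra1, Il31ra, Tnfrsf17 and Tnfrsf18.

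Genes that carry the signal of these receptors differed by less than 2-fold, apart from Cish. Of 38 genes of NF-kB and TNF or IL-1 receptor signalling above the floor, 0 were 2-fold higher or lower, beside 8.41% of all genes above the floor, and the median log2 ratio was −0.05. All but 4 of the 38 lay at 10 RPM or over, where 1.97% (10 to 100 RPM) and 0% (100 RPM and over) of all genes were past 2-fold, so the count of 0 is near the background. The lowest was Irak2, a kinase of the IL-1 receptor complex, with 26.0 RPM in the anti-miR library and 36.9 in the control, and the highest was Peli1, a ubiquitin ligase, with 10.7 RPM in the anti-miR and 8.23 RPM in the control library. Tab2, an adaptor of the kinase TAK1, and Irak1, the kinase that relays IL-1 signals, had the highest RPM, with log2 ratios of 0.26 and 0.15. Of 27 genes of JAK, STAT and SOCS signalling above the floor, 1 was past 2-fold (3.70%), on the lower side, beside 8.41% of all genes, and the median was 0.05. Most of the 27 also lay at 10 RPM or over, whereas this 1 gene, Cish, had a mean of 1.74 RPM. Of all genes of 1 to 10 RPM, 30.9% were past 2-fold. Cish, a STAT5 feedback gene, had 10 reads in the anti-miR library and 45 in the control, while Socs3, the feedback inhibitor of gp130, was highest with 22.5 RPM in the anti-miR library and 11.7 in the control, a log2 ratio of 0.93. Jak1 and Stat3, the main relays of gp130, had log2 ratios of 0.17 and 0.14.

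Inflammasome, death domain and shedding genes had 0 of 14 past 2-fold, beside 8.41% of all genes, and a median of −0.05. All of them but Fadd lay over 10 RPM, where 1.97% (10 to 100 RPM) and 0% (100 RPM and over) of all genes were past 2-fold, so this count is near the background. Nlrp3, the sensor whose complex activates caspase-1, was lowest with 35.4 RPM in the anti-miR library and 52.6 in the control, and Fadd, the adaptor of death receptors, highest with 3.98 RPM in the anti-miR and 2.00 RPM in the control library. Adam17, the protease that sheds TNF from the membrane, had 195 RPM in the anti-miR library and 192 in the control. Of 14 secreted and adhesion genes that cytokines induce, 4 were at least 2-fold lower and 0 higher, beside 3.56% and 4.85% of all genes, and the median was −0.23. All 4 but Cxcl1 had mean levels of 1 to 10 RPM, where 30.9% of all genes were past 2-fold. The 4 were Mmp9, a matrix protease, with 9 reads in the anti-miR library and 165 in the control, the neutrophil chemokine gene Cxcl1 with 127 reads in the anti-miR and 293 reads in the control library, Cxcl10 with 11 reads in the anti-miR and 28 reads in the control library, and Lcn2 with 3 reads in the anti-miR and 31 reads in the control library. Ccl2, the monocyte chemokine gene, had 182 RPM in the anti-miR library and 146 in the control, and Ptx3 was highest at a log2 ratio of 0.94. Mmp8, a protease of neutrophils, had 193 reads in the anti-miR library and 422 in the control, while most neutrophil markers were at 0; the part of such cells in these values was not tested.

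Cytokines and receptors of these families that carry other symbols had 2 of 15 past 2-fold on the higher side and 0 on the lower, beside 4.85% and 3.56% of all genes, and their median was 0.15. Both genes, Ngfr and Cntf, had mean levels of 1 to 10 RPM, where 30.9% of all genes were past 2-fold. Ngfr, the nerve growth factor receptor of the TNF receptor superfamily, had 101 reads and 6.82 RPM in the anti-miR library, against 26 reads and 1.62 RPM in the control. Cntf, a gp130 ligand, had 34 reads in the anti-miR library and 0 in the control. Clcf1, a cytokine that acts through gp130, was lowest with 3.71 RPM in the anti-miR and 5.74 RPM in the control library. The lists were chosen with earlier results of these data known and describe these libraries only.

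**Figure D5:**
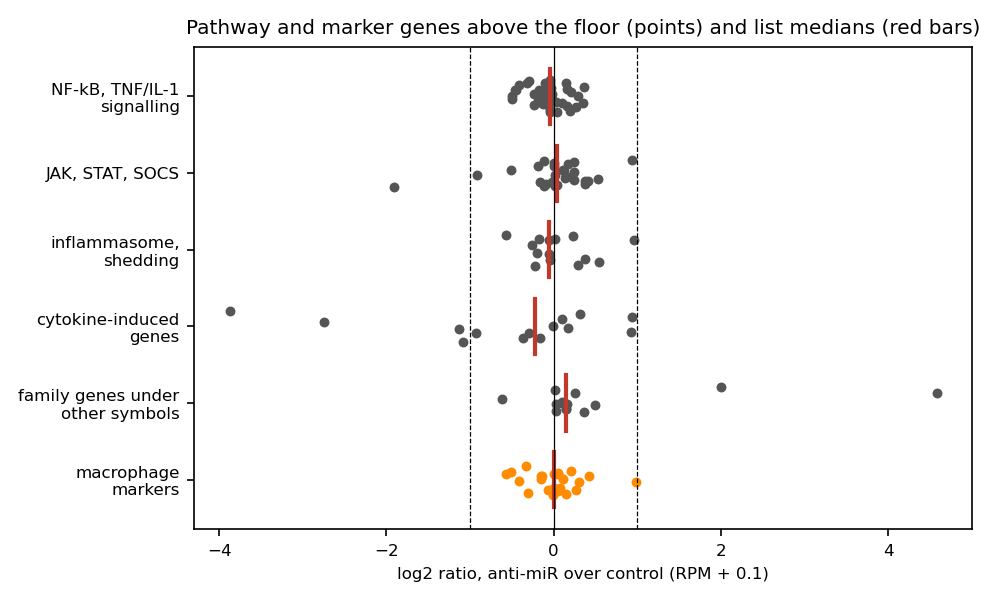
Points are the log2 ratios, anti-miR over control, of genes above the floor in 5 pathway lists and the macrophage marker list, red bars the list medians, and dashed lines 2-fold. The NF-kB list and the macrophage markers lie wholly inside 2-fold, and the cytokine-induced list has 4 genes past it on the lower side.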

How the data were processed

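Strand-specific poly(A) RNA-seq of 2 libraries was used, 1 per group. The deposited table holds a normalized signal per gene, not counts: per the file headers, HOMER summed reads over rn4 exons on the opposite strand and kept 1 transcript per gene, with no adjustment of totals. The submitters' processing notes also name CASAVA 1.8.2 and STAR 2.2.0c. The deposited columns nonetheless sum to 15423812 units in the anti-miR and 15423813 units in the control library, so they had been scaled to a common total. How this scaling was done and the treatment of multi-mapped reads: not given in the sources used here. Of the values up to 400 reads, 100% were whole multiples, within 0.005 units, of 1.04 units in the anti-miR and 0.962 units in the control library, so the reads were recovered: 14815846 and 16031780. No column of per-sample values was left unmapped.

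RPM is reads per 1000000 of these totals, RPKM divides it by the table's transcript length, ratios use a pseudocount of 0.1 RPM, and a mean of 1 RPM and a 2-fold difference set the floor and the call. Exact Clopper-Pearson 95% intervals cover counting error only, and reads were not collapsed to molecules; 3 reads are 0.202 RPM in the anti-miR library and 0.187 RPM in the control. Python 3.11.15, pandas 2.3.3, SciPy 1.17.1 and edgeR 4.0.16 (for its TMM factor only) were used, and the ratio and interval code was checked on simulated data. Of the 109 members, 104 matched the RefSeq gene table of GRCr8 by accession, 103 with the same symbol, and 81 have a promoter there. Coordinates of genes are rn4, as deposited.

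The members and lists were chosen with earlier results of these data known. Named were members at least 2-fold apart, those with a mean of 10 RPM or more, the highest and lowest ratio of each role in each family, and of each list the extremes, the 2 most abundant genes and those past 2-fold. Other members, and markers at 0, were named to complete their families and were chosen after their values were seen. Some genes that this rule names are not reported here. Alternatives were another pseudocount, floor, fold, scaling and call rule.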

Additional observations from a re-analysis of the deposited data

How the results depend on the processing

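Members past 2-fold on the higher side numbered 4 and lower ones 4 under both other scalings, which moved log2 ratios by at most 0.03, and when the counting interval also had to exclude 1. With no floor they numbered 13 higher and 7 lower, with a floor of 10 RPM 1 and 1, and at 1.5-fold 11 and 10. Over all genes, 503 higher and 369 lower became 1189 and 710 with no floor, 84 and 37 with a floor of 10 RPM, and 1124 and 887 at 1.5-fold; a pseudocount of 1 RPM left 237 lower. The next 2 settings were added after seeing the data. A binomial test of each gene's reads (exact, adjusted over all genes), which compares these libraries and not the conditions, called 19 members higher and 12 lower, and 3282 and 2736 of all genes, in members 55.4% and in all genes 58.1%. Leaving out genes at 0 in 1 library left 2 members lower. With a pseudocount of 1 RPM the log2 ratios moved to 2.34 for Lifr, -2.41 for Tnfsf4 and -1.90 for Il23a, which stayed past 2-fold, while Il17re (log2 ratio 0.998) and Tnfrsf26 (-0.88) ended inside it, leaving 3 members higher and 3 lower. No member past 2-fold changed direction under the settings run; Tnfrsf1a and Il27ra, both near equality, changed sign under both other scalings, to -0.01 and -0.02. The median log2 ratio of members stayed between 0.03 and 0.09. No paired analysis was possible because each group has 1 library. No ratio is given for the 36 members with 0 reads in both libraries, and the 17 with reads below the floor rest on few reads.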
